A study of Mus musculus with 8 samples.

Results

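The genes described here encode the subunits of NF-κB and the proteins that restrain it. They are the 10 rows of the deposited table, out of 22274, whose symbol is Rela, Rel, Relb, Nfkb1, Nfkb2, Nfkbia, Nfkbib, Nfkbie, Nfkbiz or Tnfaip3. The genes were chosen by name, with earlier results of these data known. Their mRNA was measured by RNA-seq in primary cardiac fibroblasts of the mouse, the matrix-producing cells of the heart in culture, in 4 libraries labelled GFP and 4 labelled OEIRF7. All 8 cultures were kept for 24 h with TGF-β at 5 ng/ml, a cytokine that turns fibroblasts into contractile myofibroblasts, and the comparison asks what the transduction with IRF7 changed on that background. The GFP libraries carry the vector without IRF7, and the OEIRF7 libraries the vector with it. The results text of the study describes an adenovirus, and its reagent list gives a human IRF7 adenovirus driven by a CMV promoter. The deposited design text speaks instead of an adeno-associated virus, of which the reagent list holds a version with mouse Irf7 behind a periostin promoter. No culture without TGF-β or without virus was analysed here, and the labels do not say whether the libraries of a group came from separate isolations, so the p-values measure only the spread between these libraries, which may be technical. A legend of the study gives fewer biological replicates than there are libraries in a group.

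NF-κB is a family of dimeric transcription factors made of RelA, c-Rel, RelB and the processed products of the Nfkb1 and Nfkb2 precursors. In resting cells the dimers are held in the cytoplasm by inhibitors of the IκB class, which are phosphorylated by the IκB kinase, marked with ubiquitin and degraded after signals such as TNF, IL-1 or Toll-like receptor ligands. In the canonical pathway this frees mainly dimers of RelA and p50, and in the non-canonical pathway the Nfkb2 precursor is cut to p52, the partner of RelB. Several of the genes for subunits and inhibitors are themselves targets of NF-κB, which makes the system self-limiting. In fibroblasts it is best known for driving chemokines, adhesion molecules and matrix metalloproteinases.

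Total counts per library lay between 24454801 and 28658826, and replicates were distinct libraries, their counts differing beyond sampling noise (chi-square over its degrees of freedom 2.69 to 8.67). Fibroblast markers were abundant, with a summed level of 17100 to 17700 CPM (the usual depth-scaled unit of counts, after TMM scaling) in GFP and 15600 to 16600 in OEIRF7. Among all 13533 tested genes, 29% were higher and 29.9% lower in OEIRF7 at an edgeR adjusted p under 0.05. The marker counts in this paragraph stand beside these shares. Of the 11 fibroblast markers 2 were higher and 6 lower in OEIRF7. The lower ones included Tcf21, a transcription factor of cardiac fibroblasts (log2 fold change -1.33, edgeR adjusted p = 2e-08), and the matrix genes Col3a1 (-0.53) and Col1a1 (-0.16). Postn (-0.38), a gene of activated fibroblasts, Lum (-0.35) and Pdgfrb (-0.16) were lower as well. The higher ones were Pdgfra (0.25) and Vim (0.22), while Col1a2, Dcn and Thy1 did not pass the test. Mouse Irf7 was lower under the label OEIRF7, with 92.0 to 147 CPM in GFP and 14.5 to 16.4 in OEIRF7 (log2 fold change -2.96, standard error 0.12, edgeR adjusted p = 7.7e-11). With a human transgene these counts measure the endogenous gene and do not check the label, and with a mouse transgene they go against it, so every direction below is between libraries as labelled. Of the 8 macrophage markers, 6 were higher in OEIRF7, and the summed level of all 8 was 275 to 328 CPM in GFP and 363 to 399 in OEIRF7. The log2 fold changes of these 6 were 1.21 for Cd14, 1.07 for Itgam, 1.05 for Mrc1, 0.44 for Adgre1, 0.22 for Lyz2 and 0.21 for Cd68. The pan-leukocyte gene Ptprc, at 4.38 to 6.45 CPM in GFP and 4.08 to 5.93 in OEIRF7, did not pass the test (log2 fold change -0.08, edgeR adjusted p = 0.64), nor did Csf1r (0.06, edgeR adjusted p = 0.54). Of 7 endothelial markers, 3 were higher and 1 lower, with sums of 217 to 231 CPM and 221 to 250 CPM. Of the 5 mural markers tested, 2 were higher and 2 lower, with sums over the list of 68.9 to 76 CPM and 79 to 98.8 CPM. The summed level of 7 lymphocyte markers stayed under 0.827 CPM with 3 of them at 0 everywhere, and of the 7 cardiomyocyte markers Tnnt2 alone was tested and was lower. The part of these other cells in the results below was not tested, and in bulk RNA a changed number of cells and a changed level per cell cannot be told apart. Reads of mitochondrial genes took 3.68% to 3.88% of the counts in GFP and 2.87% to 3.11% in OEIRF7.

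All 10 genes were higher in the libraries labelled OEIRF7, and for each of them the lowest OEIRF7 library lay above the highest GFP library. The fold differences ran from 1.21 for Nfkb1 to 2.99 for Nfkbie. All passed edgeR's quasi-likelihood test at an adjusted p (Benjamini-Hochberg, over 13533 genes) under 0.05, the largest being 0.0027. Against this stands a broad background, since 58.9% of all tested genes were called, 29% as higher and 29.9% as lower, and the groups did not overlap in 53.8% of the genes, 26.8% with OEIRF7 on top. With a fold difference over 1.5 required as well, 6 of the 10 were called, against 18.9% of all tested genes by that rule, 9.26% as higher and 9.64% as lower. These 6 were Nfkbie, Nfkbia, Relb, Nfkb2, Nfkbiz and Tnfaip3, and the 4 under it were Rel, Rela, Nfkbib and Nfkb1. The division is not sharp, as the 95% intervals of Tnfaip3 (log2 fold change 0.57 to 0.84) and Rel (0.23 to 0.60) overlap. The median log2 fold change of the 10 was 0.78, beside 0.00 over all tested genes. Because the choice of the 10 was made with earlier results known, these comparisons are not independent evidence. All 10 passed the filter on low counts, with 131 to 3362 counts per library.

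**Figure D1:**
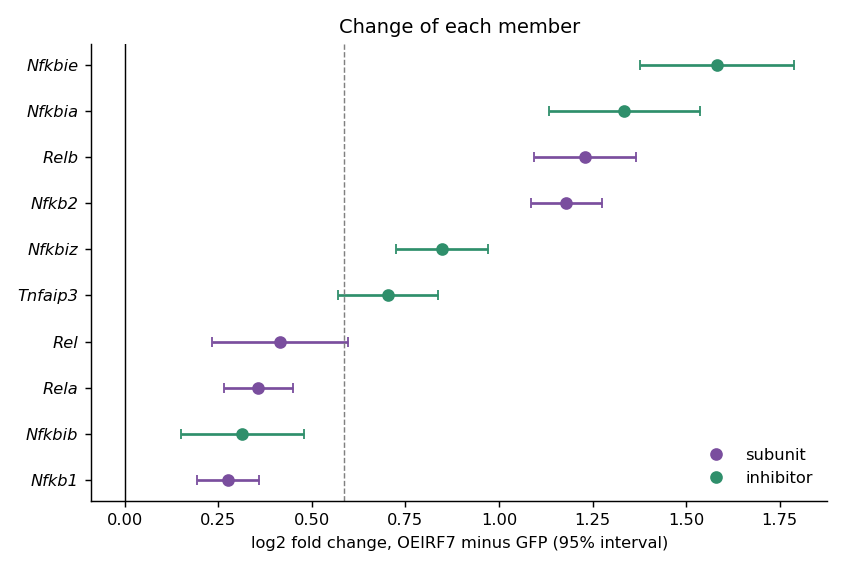
Log2 fold change (OEIRF7 minus GFP) of each NF-κB gene with its 95% interval from edgeR, subunits in purple and inhibitors in green, with a dashed line at a fold of 1.5. The intervals of all 10 genes lie above 0, from 0.28 for Nfkb1 to 1.58 for Nfkbie, and 6 genes lie past the dashed line by their estimate.

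Promoter sequences are shown for some of the members, because members of the family are known targets of NF-κB. Among those with small differences only Rela is printed, while Rel, which held a match, and Nfkbib, which held none, are described below. Whether any of these sites had a part in the differences was not tested. The windows are those of RefSeq on GRCm38.p6, from 250 bases before to 50 bases after an annotated start, and were found for 7 of the 10 genes in 10 windows (not for Nfkb1, Relb and Nfkbiz). Capitals mark matches on either strand to the κB consensus, the 10-base palindrome-like site that NF-κB dimers bind. Nfkbia lies on the minus strand and its window is chr12:55492598-55492897. The window of Nfkbie is chr17:45555450-45555749 on the plus strand. For Nfkb2, on the plus strand, the upstream start has the window chr19:46304487-46304786 and the next start chr19:46305445-46305744. Tnfaip3 is on the minus strand with chr10:19015361-19015660, and Rela on the plus strand with chr19:5637291-5637590.
Nfkbia promoter: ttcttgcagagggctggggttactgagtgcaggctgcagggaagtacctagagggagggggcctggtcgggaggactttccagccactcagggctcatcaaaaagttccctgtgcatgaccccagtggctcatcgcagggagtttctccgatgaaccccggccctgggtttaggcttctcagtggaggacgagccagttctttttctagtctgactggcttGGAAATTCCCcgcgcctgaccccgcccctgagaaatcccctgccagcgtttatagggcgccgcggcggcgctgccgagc
Nfkbie promoter: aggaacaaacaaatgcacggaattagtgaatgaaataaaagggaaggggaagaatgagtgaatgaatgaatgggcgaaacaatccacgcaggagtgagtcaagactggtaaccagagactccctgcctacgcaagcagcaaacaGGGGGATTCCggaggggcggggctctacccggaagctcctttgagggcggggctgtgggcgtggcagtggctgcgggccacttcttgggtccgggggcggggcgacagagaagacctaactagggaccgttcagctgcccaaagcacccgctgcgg
Nfkb2 upstream promoter: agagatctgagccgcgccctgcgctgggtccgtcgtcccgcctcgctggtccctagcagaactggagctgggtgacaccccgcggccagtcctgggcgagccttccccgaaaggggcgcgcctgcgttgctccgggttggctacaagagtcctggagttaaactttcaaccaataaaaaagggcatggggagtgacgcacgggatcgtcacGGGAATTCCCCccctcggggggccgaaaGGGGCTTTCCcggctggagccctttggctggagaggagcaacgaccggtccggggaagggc
Nfkb2 downstream promoter: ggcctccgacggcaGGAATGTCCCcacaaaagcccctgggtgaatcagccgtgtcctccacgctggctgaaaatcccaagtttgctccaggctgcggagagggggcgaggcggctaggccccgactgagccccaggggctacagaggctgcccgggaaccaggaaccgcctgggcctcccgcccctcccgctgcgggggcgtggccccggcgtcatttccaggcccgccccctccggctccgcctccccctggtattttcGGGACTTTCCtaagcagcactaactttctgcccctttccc
Tnfaip3 promoter: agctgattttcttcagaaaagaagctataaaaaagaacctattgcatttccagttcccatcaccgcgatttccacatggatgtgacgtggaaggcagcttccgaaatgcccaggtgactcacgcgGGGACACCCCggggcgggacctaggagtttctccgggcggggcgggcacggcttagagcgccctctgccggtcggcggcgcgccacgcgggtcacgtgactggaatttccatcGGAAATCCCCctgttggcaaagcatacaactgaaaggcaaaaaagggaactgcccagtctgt
Rela promoter: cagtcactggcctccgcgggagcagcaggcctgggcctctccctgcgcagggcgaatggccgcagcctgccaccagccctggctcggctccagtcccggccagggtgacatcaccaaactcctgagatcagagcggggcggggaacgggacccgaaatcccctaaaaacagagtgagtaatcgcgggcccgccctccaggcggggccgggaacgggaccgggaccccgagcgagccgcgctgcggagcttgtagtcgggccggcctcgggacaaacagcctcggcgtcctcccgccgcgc

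The Nfkbia window held 1 match, GGGAATTTCC on the strand opposite to the gene, whose span begins 29 bases before the start. The Nfkbie window also held 1, GGGGGATTCC, beginning 106 bases before the start. In Nfkb2 there were 2 separate stretches in the upstream window, beginning 39 and 11 bases before the start, and 2 in the next window, of which GGGACTTTCC begins at base 11 after the start. Window 3 of Nfkb2 overlaps window 2 and holds the same GGGACTTTCC. Tnfaip3 had 2 stretches, beginning 125 and 12 bases before its start, while its second annotated start had none. Rel, whose difference was small, had 1 stretch. The windows of Rela and Nfkbib had no match, which says only that these letters are not in those bases. In all, 7 of the 10 windows held the consensus, beside 8.46% of the 32851 promoter windows of the same length and 11 of 36 windows (30.6%) of genes listed below as NF-κB targets. By gene, 5 of the 7 had it in at least 1 window, beside 9.55% of all genes with a window. The consensus is rich in G and C, which made up 47% to 75% of the bases of these 10 windows. The base content of all windows was not compared, so the shares above were not adjusted for it. A looser form, GGG and CC with any 5 bases between them, which includes every match of the consensus, was in 9 of the 10 windows and in 50.8% of all. The core of the interferon-stimulated element to which IRF proteins bind, GAAA repeated after any 2 bases and searched on both strands, was in none of the 10 windows and in 3.44% of all. With so low a share its absence from 10 windows says little, and bases farther from the starts were not searched.

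Among the subunits with a transactivation domain, Relb moved most. Rela (chr19:5637483-5648130, plus strand, GRCm38 as for all genes here) encodes p65, the main activating subunit of the canonical pathway. Its level was 92.6, 84.0, 93.8 and 92.3 CPM in GFP replicates 1 to 4 and 113, 116, 123 and 114 CPM in OEIRF7. The means were 90.7 ± 4.48 and 116 ± 4.59 (SD, n = 4 per group), a log2 fold change of 0.36 (standard error 0.043, edgeR adjusted p = 4.8e-06). The groups were apart by more than their spread, although the difference was among the smaller ones of the family, and 37.2% of all tested genes had a larger one in either direction.

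Rel (chr11:23736847-23770970, minus strand) encodes c-Rel, a subunit best known from lymphocytes. Its level was 16.7, 15.5, 12.5 and 15.9 CPM in GFP and 20.8, 21.7, 19.3 and 18.9 CPM in OEIRF7. GFP replicate 3 was the lowest library and the gap between the groups was narrow. The log2 fold change was 0.41 (standard error 0.085, edgeR adjusted p = 0.00068). Relb (chr7:19606217-19629438, minus strand) encodes the activating subunit of the non-canonical pathway. It stood at 9.93, 8.97, 9.16 and 9.88 CPM in GFP and at 22.6, 21.4, 22.5 and 22.5 CPM in OEIRF7. All OEIRF7 libraries were thus more than 2 times above every GFP library, and the log2 fold change was 1.23 (standard error 0.063, edgeR adjusted p = 6.6e-10).

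The precursor genes parted in the same way. Nfkb1 (chr3:135584655-135691547, minus strand) encodes p105, the source of p50. Its GFP libraries were almost equal, at 82.7, 82.2, 83.4 and 82.4 CPM, and OEIRF7 had 97.8, 102.5, 105.4 and 94.8 CPM. This was the smallest difference of the 10, with a log2 fold change of 0.28 (standard error 0.039, edgeR adjusted p = 2.2e-05). Nfkb2 (chr19:46304320-46312385, plus strand) encodes p100, which both retains RelB in the cytoplasm and yields p52. It had 35.2, 36.8, 36.3 and 38.3 CPM in GFP and 82.3, 82.8, 88.1 and 78.8 CPM in OEIRF7. The OEIRF7 values were again more than 2 times those of GFP, with a log2 fold change of 1.18 (standard error 0.044) and the smallest adjusted p of the family, 3.4e-11 from edgeR. Nfkb2 shares 299 exonic bases with Psd on the opposite strand, which had 1.14 CPM on average, and 531 with AC114539.1, also opposite, which has no row in the deposited file. The methods name a stranded library kit and the labels another kit, and the strand setting of the counting is not given in the sources used here, so reads of such partners may be included.

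Of the cytoplasmic inhibitors, Nfkbia and Nfkbie rose strongly and Nfkbib little. Nfkbia (chr12:55489410-55492647, minus strand) encodes IκBα, the inhibitor that is resynthesised fastest after NF-κB is activated. It had 14.0, 16.3, 17.9 and 14.6 CPM in GFP and 38.1, 40.9, 45.5 and 33.5 CPM in OEIRF7. The OEIRF7 libraries spread more widely than for the subunits, with replicate 3 highest and replicate 4 lowest, and still lay well above GFP. The means were 15.7 ± 1.79 and 39.5 ± 5.04 (SD, n = 4 per group), a log2 fold change of 1.33 (standard error 0.094, edgeR adjusted p = 1.8e-08).

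Nfkbie (chr17:45555703-45563169, plus strand) encodes IκBε, a slower member of the same class. It had 4.89, 6.21, 6.48 and 5.26 CPM in GFP and 15.8, 18.5, 17.7 and 16.2 CPM in OEIRF7. Its log2 fold change of 1.58 (standard error 0.096, edgeR adjusted p = 3.7e-09) was the highest of the family, and 2.17% of all tested genes had a higher one. Nfkbib (chr7:28758251-28767512, minus strand) encodes IκBβ, which is less tied to feedback by NF-κB than IκBα. Its counts gave 19.3, 19.8, 18.5 and 16.9 CPM in GFP and 23.0, 23.4, 25.9 and 20.2 CPM in OEIRF7. OEIRF7 replicate 4 was close to the highest GFP library, and the log2 fold change was 0.31 (standard error 0.077, edgeR adjusted p = 0.0027). This gene shares 42 exonic bases with Sirt2 on the opposite strand, which was at 148 CPM on average and lower in OEIRF7 (log2 fold change -0.49, edgeR adjusted p = 4e-08), and 314 with Ccer2, at 0.0865 CPM.

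Nfkbiz and Tnfaip3 lay between these sizes. Nfkbiz (chr16:55811375-55838899, minus strand) encodes IκBζ, a nuclear protein of the family that binds p50 and helps to switch on a subset of secondary response genes. Its level was 30.3, 29.4, 33.7 and 31.9 CPM in GFP and 55.9, 54.2, 62.0 and 53.2 CPM in OEIRF7, a log2 fold change of 0.85 (standard error 0.057, edgeR adjusted p = 1.2e-08). Tnfaip3 (chr10:19000910-19015657, minus strand) encodes A20, a ubiquitin-editing enzyme that shuts off signalling from the TNF receptor to the IκB kinase. It had 35.2, 32.9, 36.2 and 39.3 CPM in GFP and 52.8, 61.5, 62.5 and 56.9 CPM in OEIRF7, a log2 fold change of 0.70 (standard error 0.062, edgeR adjusted p = 2e-07). For both genes the groups were separated by more than the spread within either. For each of the 10 genes the exact permutation test, two-sided and on log2 CPM, gave p = 0.029, which is the smallest p that 4 against 4 libraries allow. That value is fixed once the groups do not overlap, as in 53.8% of all tested genes, so it adds nothing to the separation.

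**Figure D2:**
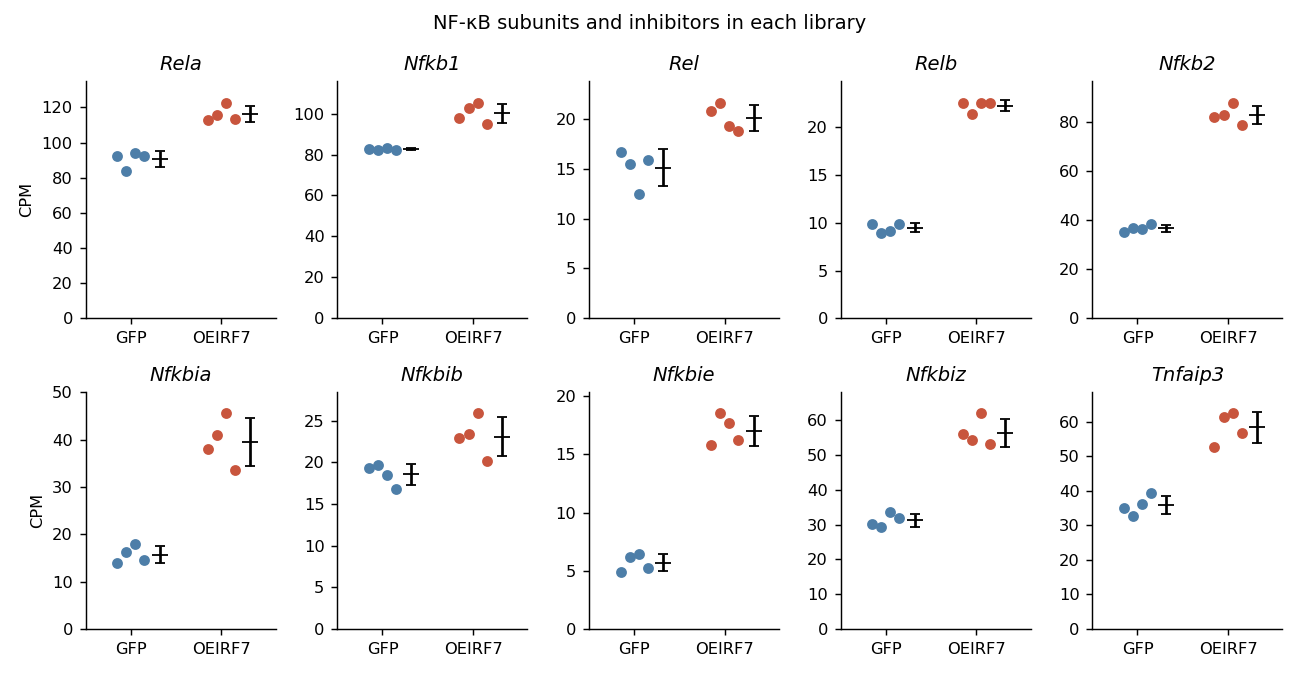
Level in CPM of each NF-κB gene in each library (points, replicates 1 to 4 from left to right), with the mean and SD of each group in black. In all 10 panels the OEIRF7 points lie above the GFP points, and the gap is narrow for Nfkbib (highest GFP 19.8, lowest OEIRF7 20.2).

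The libraries were not interchangeable within a group. OEIRF7 replicate 3 was the highest of its group for 7 of the 10 genes, and OEIRF7 replicate 4 was the lowest for 6 and the highest for none. The median deviation from the group mean was 0.083 on the log2 scale in the former and -0.076 in the latter. In GFP the order changed from gene to gene, replicate 3 being highest for 5 and replicate 2 lowest for 5. These shifts were small beside most of the differences between the groups.

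Counts of a member relative to those of Rela in the same library do not depend on how libraries are scaled. By this measure Nfkbie was 1.23 higher in OEIRF7 on the log2 scale, Nfkbia 0.97, Relb 0.87, Nfkb2 0.82, Nfkbiz 0.49 and Tnfaip3 0.35, with no overlap between the groups. For Nfkbia the log2 ratio to Rela was -2.73, -2.36, -2.39 and -2.66 in GFP and -1.56, -1.50, -1.43 and -1.76 in OEIRF7. The ratio of Nfkbib to Rela overlapped between the groups, with means of -2.29 ± 0.15 and -2.33 ± 0.11 (SD, n = 4 per group), and so did that of Rel, with -2.59 ± 0.22 and -2.53 ± 0.12. Nfkb1 was 0.083 lower relative to Rela in OEIRF7, with GFP replicate 2 standing apart at -0.031 from the other GFP libraries at -0.16 to -0.17. The 6 genes with the larger differences thus gained on Rela, and the inhibitor gained also on its paralog, since the log2 ratio of Nfkbia to Nfkbib was between -0.47 and -0.048 in GFP and between 0.73 and 0.81 in OEIRF7. Likewise Nfkb2 gained on Nfkb1, with a log2 ratio of -1.17 ± 0.055 in GFP and -0.27 ± 0.026 in OEIRF7 (SD, n = 4 per group). For the partners of the non-canonical pathway, the log2 ratio of Relb to Nfkb2 was -1.95 ± 0.090 and -1.90 ± 0.077 with overlapping libraries. These ratios were chosen after the values of the genes were seen and carry no test.

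**Figure D3:**
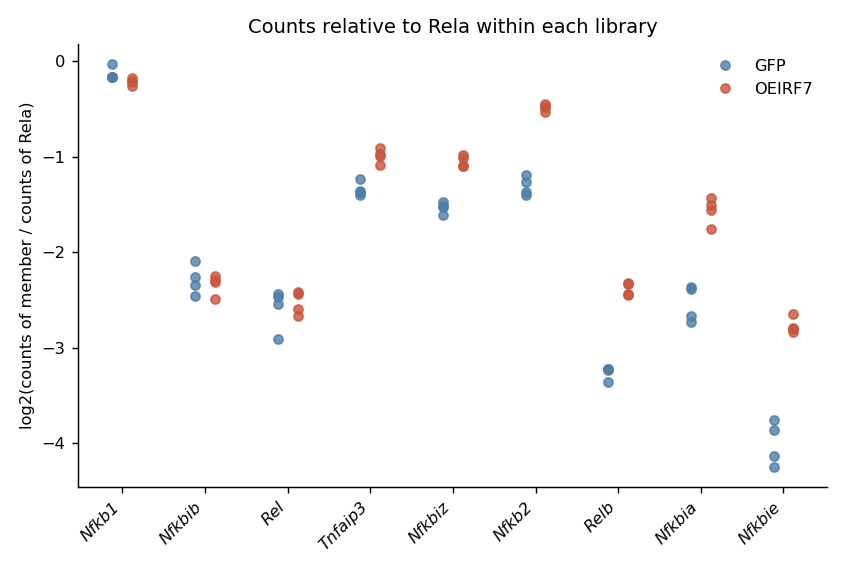
Log2 ratio of the counts of each NF-κB gene to those of Rela, 1 point per library, ordered by the difference between the groups. Nfkbib and Rel overlap between GFP and OEIRF7, and the gap is widest for Nfkbie, with a difference of 1.23.

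Levels between genes were compared by FPKM, which account for gene length. In GFP the order from the top was Rela with 34.3 ± 1.40 FPKM, Nfkb1 with 25.5 ± 0.490, Nfkbib with 14.8 ± 1.02 and Nfkb2 with 11.7 ± 0.437 (SD, n = 4). Tnfaip3 followed with 10.3 ± 0.821 FPKM, Nfkbia with 9.85 ± 1.14, Nfkbiz with 8.54 ± 0.524 and Relb with 4.52 ± 0.156 (SD, n = 4). Nfkbie, at 2.33 ± 0.313 FPKM, and Rel, at 2.01 ± 0.240, were at the bottom. Neighbours from Nfkb2 to Nfkbiz overlapped in their libraries, as did Nfkbie and Rel, so the order among these is not settled. In OEIRF7 Rela stayed first with 45.1 ± 1.56 FPKM and Nfkb1 second with 32.3 ± 1.28, followed by Nfkb2 with 27.4 ± 1.25 and Nfkbia with 25.3 ± 3.14 (SD, n = 4). Nfkbib, at 18.8 ± 1.82 FPKM, came below them. The levels of Nfkb2 and Nfkbia overlapped with each other but not with that of Nfkbib, so both had changed places with it. Rel remained last with 2.73 ± 0.188 FPKM, now without overlap with Nfkbie at 7.07 ± 0.525.

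**Figure D4:**
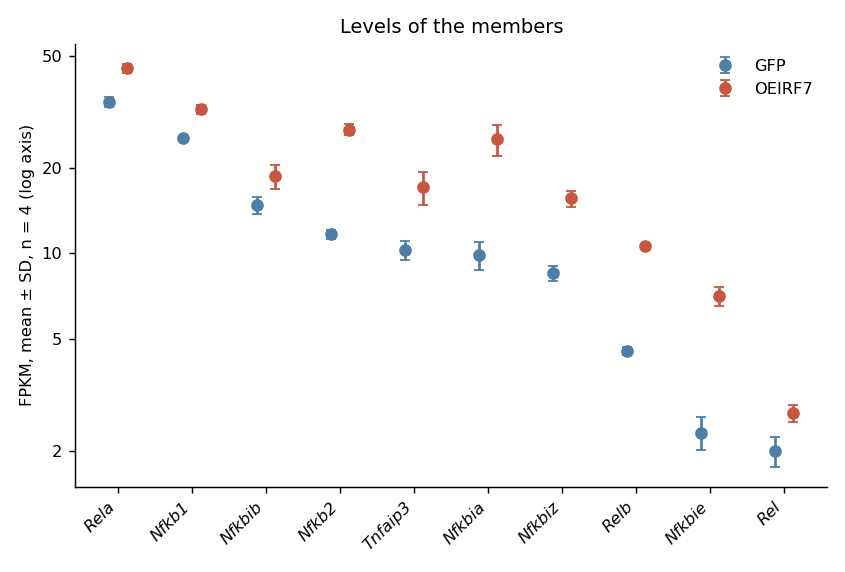
Level in FPKM (log axis) of each NF-κB gene, mean and SD of 4 libraries, ordered by the GFP level. Rela and Nfkb1 lead in both groups, and Nfkb2 (11.7 to 27.4) and Nfkbia (9.85 to 25.3) pass Nfkbib (14.8 to 18.8).

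The wider pathway moved unevenly. Of 3 other relatives of the IκB family, Bcl3, a nuclear partner of p50 and p52, and Nfkbid, another nuclear IκB, rose with log2 fold changes of 1.87 and 1.70 (edgeR adjusted p = 1.2e-06 and 0.00012). Both were rare, at 1.29 and 0.480 CPM in GFP and 4.70 and 1.56 CPM in OEIRF7. Nfkbil1 had a log2 fold change of 0.08 (edgeR adjusted p = 0.41). These 3 fall outside the rule for named genes and were named after their values were seen.

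Kinases of the pathway and their partners were called about as often as other genes. Of 11 kinases and their partners, 2 rose, 4 fell and 5 were not called, with a median log2 fold change of -0.03. The share called was 54.5%, beside 58.9% of all tested genes, with 18.2% called as higher (29% of all) and 36.4% as lower (29.9% of all). Chuk, which encodes IKKα, had 79.2 ± 2.86 CPM in GFP and 72.0 ± 1.33 in OEIRF7 (SD, n = 4 per group, log2 fold change -0.14, edgeR adjusted p = 0.0059). Ikbkg, the regulatory subunit NEMO, fell by 0.24 on the log2 scale (edgeR adjusted p = 0.00041). Ikbke, a related kinase of the interferon response, fell by 0.45 (edgeR adjusted p = 0.001). Ikbkb, which encodes IKKβ, was at 58.7 and 59.4 CPM with a log2 fold change of 0.02 (edgeR adjusted p = 0.74). Map3k8, which encodes the kinase TPL2 held by p105, rose by 0.83, with 4.23 ± 0.271 CPM in GFP and 7.50 ± 0.952 in OEIRF7 (SD, n = 4 each). The NF-κB-inducing kinase gene Map3k14, which triggers the cutting of p100, was called as well, with a log2 fold change of 0.29 (edgeR adjusted p = 0.0044), though its groups overlapped. Ikbkb and Map3k14 were named after their values were seen. For Ikbkg the call was lost on FPKM, where limma gave an adjusted p = 0.36.

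Of 19 adaptors and ubiquitin genes, 7 rose, 6 fell and 6 were not called, with a median log2 fold change of 0.04. The shares, 36.8% higher and 31.6% lower, were near the 29% and 29.9% of all tested genes. Birc3, the inducible ubiquitin ligase cIAP2, rose, with 13.5 ± 1.22 CPM in GFP and 36.0 ± 2.24 in OEIRF7 (SD, n = 4 each), a log2 fold change of 1.41 (standard error 0.070, edgeR adjusted p = 4.5e-10). Myd88, Birc2 and Traf3 rose by 0.43, 0.40 and 0.36 on the log2 scale. The largest rise of the list was that of Traf1, 1.82 (edgeR adjusted p = 1.3e-06), a rare transcript at 0.812 CPM in GFP and 2.88 in OEIRF7. Traf1 falls outside the rule for named genes and was named after its value was seen. Irak1, a kinase of the IL-1 and Toll-like receptor pathway, fell most, with 96.6 ± 4.04 CPM in GFP and 37.4 ± 1.19 in OEIRF7 (SD, n = 4 each), a log2 fold change of -1.37 (standard error 0.042, edgeR adjusted p = 6.7e-12). Sharpin and Rbck1, members of the linear ubiquitin ligase, fell by 0.42 and 0.35, and the ubiquitin-conjugating enzyme gene Ube2n fell by 0.34.

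Of 15 feedback genes outside the family, 9 rose, 4 fell and 2 were not called, with a median log2 fold change of 0.17. This is 60% higher and 26.7% lower, beside 29% and 29.9% of all tested genes. With a fold over 1.5 required, 4 of the 15 were higher and 1 lower, beside 9.26% and 9.64% of all tested genes. Zc3h12a, a ribonuclease that degrades cytokine mRNA, had 8.63 ± 0.879 CPM in GFP and 18.0 ± 0.674 in OEIRF7 (SD, n = 4 each, log2 fold change 1.06, edgeR adjusted p = 2.9e-08). Sqstm1, the autophagy receptor p62, rose by 0.66. Tnip1 and Tnip2, which encode binding partners of A20, rose by 0.66 and 0.47. Tnip3 had the largest rise of the list, 3.82 (edgeR adjusted p = 2.1e-08), but was rare, at 0.184 CPM in GFP and 2.67 in OEIRF7. It falls outside the rule for named genes and was named after its value was seen. N4bp1 fell by 0.63, and Irak3 and the ubiquitin ligase gene Itch fell by 0.36 and 0.20. Irak3 lost its call on FPKM, where limma gave an adjusted p = 0.059.

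Genes known as targets of NF-κB in fibroblasts and other cells were higher far more often than lower. Of 46 listed, 42 were tested, 31 rose (73.8%, beside 29% of all tested genes), 3 fell and 8 were not called, with a median log2 fold change of 1.0. With a fold over 1.5 required, 28 of the 42 rose and 1 fell, beside 9.26% higher and 9.64% lower among all tested genes. The list was written with earlier results of these data known, so its direction is not independent evidence. Ccl7, a chemokine for monocytes, had 16.6 ± 2.13 CPM in GFP and 252 ± 22.8 in OEIRF7 (SD, n = 4 each), a log2 fold change of 3.93 (standard error 0.082, edgeR adjusted p = 1.9e-13). Cxcl1, a chemokine for neutrophils, had 2.15 ± 0.218 CPM in GFP and 19.99 ± 4.99 in OEIRF7, with a log2 fold change of 3.21. The matrix metalloproteinase genes Mmp9 and Mmp13 had larger values, 5.88 and 5.11, but Mmp9 stood at 0.185 CPM in GFP, so its size is imprecise. The targets that fell were Gadd45b, Ccnd1 and Il15, by 0.60, 0.47 and 0.45 on the log2 scale.

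Not all listed targets were higher. Il6, a classic target, was at 31.8 and 30.6 CPM in the groups with a log2 fold change of -0.05 (edgeR adjusted p = 0.73). Sod2, a mitochondrial superoxide dismutase, had 0.06 (edgeR adjusted p = 0.27). Both were named after their values were seen. Il1b, Csf3, Saa3 and Ccl20 did not pass the filter on low counts. The KEGG entry for NF-κB signalling is given to 230 rows of the deposited file, among them 6 of the 10 genes, and 86 of these were tested. Of the 80 tested that are not among the 10, 38 rose, 20 fell and 22 were not called, with a median log2 fold change of 0.24. The shares were 47.5% higher and 25% lower, beside 29% and 29.9% of all tested genes.

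**Figure D5:**
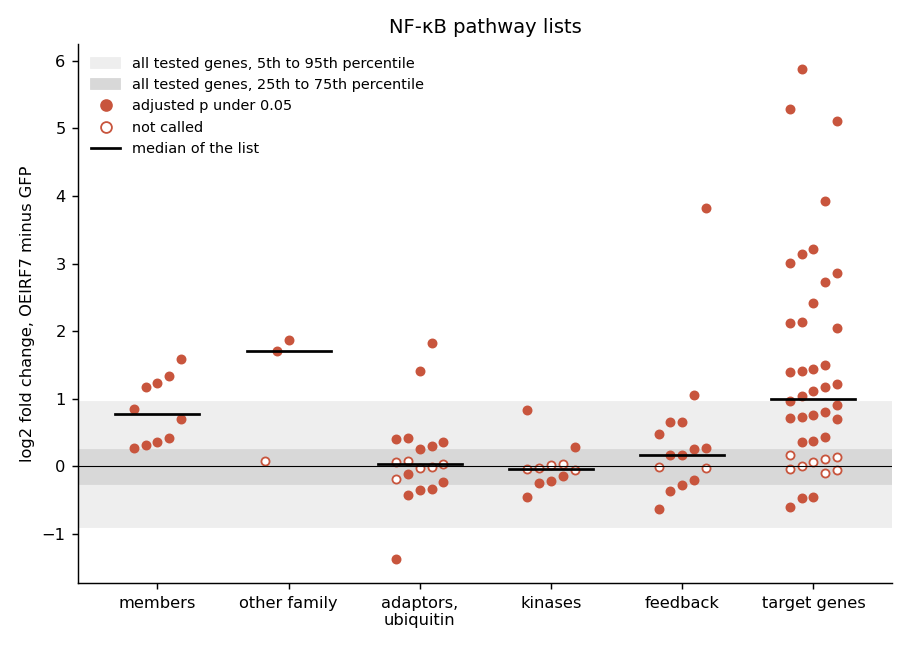
Log2 fold change (OEIRF7 minus GFP) of the tested genes of each NF-κB list, 1 point per gene, filled where the edgeR adjusted p is under 0.05, with the list median as a bar and grey bands for the spread of all tested genes. The medians are 0.78 for the 10 genes, 0.04 for adaptors and ubiquitin machinery, -0.03 for kinases, 0.17 for feedback genes and 1.0 for targets.

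The pattern of Nfkbie over the 8 libraries, the member with the largest difference, was most like those of Pfdn4, Nipal1, Plekhg3, 4933434E20Rik and Rab11a, with Pearson r of log2 CPM from 0.996 to 0.998. Because the difference between the groups dominates such a measure, 1200 tested genes had r over 0.95 with it.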

How the data were processed

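The authors trimmed reads with Trimmomatic, mapped them to GRCm38 with HISAT2 and counted reads per gene with HTSeq-count; the deposited counts are raw. The deposited FPKM come from Cufflinks. Tool versions and the strand setting are not given in the sources used here. The authors' own fold changes, p-values and FDR, also in the table, were not used. Symbols damaged by a text replacement (121) were restored by Ensembl identifier.

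The main test on the counts was run with edgeR 4.0.16 (R 4.3.3). Genes passing filterByExpr (13533) were scaled by TMM and compared with glmQLFit and glmQLFTest, with Benjamini-Hochberg adjustment over all of them. Log2 CPM used a prior count of 2. Standard errors are the log2 fold change over the root of F. FPKM (limma 3.58.1) and DESeq2 1.42.0 served as alternatives. The fits were tested on simulated data. Promoters came from RefSeq, gene coordinates from GENCODE M21. Protein sequences were not analysed here.

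Genes named from the wider lists are, per list, up to 4 rises and 4 falls that were largest among those called, over 5 CPM on average and without overlap between groups. The members and lists were chosen with earlier results of these data known.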

Additional observations from a re-analysis of the deposited data

Results flagged for a closer look

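Among 37 genes in both groups, 4 of 74 sets of 4 libraries held a library far from the other 3 by Dixon's test at the 95% level, and chance flags about 5% of such sets. In the NF-κB family, Rela was at 84.0 CPM in GFP replicate 2, below 92.3 to 93.8 CPM in the other GFP libraries. Relb was at 21.4 CPM in OEIRF7 replicate 2, below 22.5 to 22.6 CPM in the others. Outside it, Traf3 was at 89.3 CPM in GFP replicate 2 (96.9 to 98.4 in the others), and Tnip2 at 16.7 CPM in OEIRF7 replicate 3 (19.7 to 20.2 in the others). Each of these libraries remained on its own group's side of the gap.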

How the results depend on the processing

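Each of the 10 genes kept its direction and an adjusted p under 0.05 in all 17 alternatives tried for it, which makes 170 of 170 values. Without scaling beyond library size the median log2 fold change of all tested genes was 0.029, and under limma on log2(FPKM + 0.1) 0.037. Requiring a fold over 1.5 left 6 of the 10 genes, 3 of 19 adaptors and ubiquitin genes, 1 of 11 kinases and partners and 5 of 15 feedback genes. The same rule left 35 of the 86 tested KEGG genes, a set that here includes 6 of the 10, and 2558 of all 13533 genes (18.9%). Without those 6 members it left 22 KEGG genes higher and 9 lower. With at least 10 counts in every library 1 of the 2 remaining other family members was called. The replicate number as a block left the count at 10 and changed no call of the 10 genes; over all genes it gave 8211 calls against 7969. Deviations of same-numbered libraries correlated by 0.079 to 0.14, and each correlated best with its own number, a hint from the data and not from the design. Of 458 values for 27 other genes, Irf7 and those named by the rule, 454 kept their call, and Ikbkg and Irak3 lost theirs in both limma fits. Genes named after their values were seen, such as Bcl3, Nfkbid, Traf1, Tnip3 and Map3k14, were not followed one by one through the alternatives. The 10 genes had at least 131 counts in every library. The rarer genes named above, such as Mmp9, Bcl3, Nfkbid, Traf1 and Tnip3, rest on far fewer in the GFP libraries.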
